A study of Mus musculus with 2 samples.

Results

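The peaks described here are the accessible sites of newborn mouse kidney whose deposited interval was wider than 150 bp. They were chosen by their own width and signal: autosomal peaks with an end minus start of more than 150 bp in either deposited list and a deposited signal value below 300. Replicate 1 held 1447 of them among 266133 peaks and replicate 2 held 1364 among 257133, so 2811 of 523266 peaks in all. They are called wide peaks below and are compared with the autosomal peaks of exactly 150 bp and signal below 300, which numbered 260536 and 251452. The study holds 1 group of 2 biological replicates of kidney from B6NCrl mice at postnatal age 0 days, assayed by DNase-seq, with no other genotype, age or treatment. The labels give whole tissue, the same donor record for both replicates and no sex, and nothing in them ties the replicates to different animals, so differences between replicates may be technical. As a check of the tissue label, all 13 autosomal genes among 14 chosen markers of kidney cell types, including Six2 of nephron progenitors, Nphs1 of podocytes, Foxd1 of stroma and Lrp2 of the proximal tubule, had a promoter peak in both replicates. Over all autosomal protein-coding genes 74.1% and 74.2% had one, so this check is a weak one. Coordinates are those of mouse assembly mm10.

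DNase I cuts DNA that is not wrapped in a nucleosome, so a stretch of dense cuts marks a promoter, an enhancer or an insulator. Such an opening can be short, where a single factor or a small cluster of factors holds it, or longer, where binding sites or start sites are spread along it. CTCF, the zinc finger protein of insulators and chromatin loops, is known for sharply focused, well positioned openings, whereas the start sites of CpG-rich promoters are often dispersed. A newborn mouse kidney still forms nephrons and holds progenitors, immature tubules, stroma, vessels and collecting ducts together.

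The sequences below are of sites wide in both replicates and of wide peaks that the other replicate divided. Wide peaks without a counterpart are not among these sequences. The first 3 are sites outside promoters that were wide in both replicates, with capitals marking the bases inside both replicates' wide peaks. All are given 5′ to 3′ on the + strand of mm10 and come from the RefSeq copy of GRCm38. The site in an intron of Tbc1d1 (chr5:64336921-64337150) and the intergenic site nearest to Des (chr1:75345641-75345930) are the only sites with the same interval in both lists, so their letters are capitals throughout. The site in an intron of Plpp3 (chr4:105170421-105170710) ended 20 bp further in replicate 2.
Tbc1d1 intron: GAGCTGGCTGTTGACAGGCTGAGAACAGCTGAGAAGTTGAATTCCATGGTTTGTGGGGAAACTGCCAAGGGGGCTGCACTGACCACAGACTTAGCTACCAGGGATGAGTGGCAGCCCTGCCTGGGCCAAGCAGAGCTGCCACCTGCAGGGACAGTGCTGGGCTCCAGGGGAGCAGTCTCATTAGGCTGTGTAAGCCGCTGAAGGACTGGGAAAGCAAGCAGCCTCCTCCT
Des, nearest TSS: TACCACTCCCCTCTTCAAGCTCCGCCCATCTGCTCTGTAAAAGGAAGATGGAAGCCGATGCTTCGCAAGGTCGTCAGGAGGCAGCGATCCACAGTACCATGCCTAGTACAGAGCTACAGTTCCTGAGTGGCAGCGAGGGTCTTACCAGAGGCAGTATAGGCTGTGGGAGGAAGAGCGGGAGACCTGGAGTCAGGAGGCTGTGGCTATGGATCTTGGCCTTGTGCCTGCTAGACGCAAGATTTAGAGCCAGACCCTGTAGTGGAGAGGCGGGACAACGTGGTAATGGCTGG
Plpp3 intron: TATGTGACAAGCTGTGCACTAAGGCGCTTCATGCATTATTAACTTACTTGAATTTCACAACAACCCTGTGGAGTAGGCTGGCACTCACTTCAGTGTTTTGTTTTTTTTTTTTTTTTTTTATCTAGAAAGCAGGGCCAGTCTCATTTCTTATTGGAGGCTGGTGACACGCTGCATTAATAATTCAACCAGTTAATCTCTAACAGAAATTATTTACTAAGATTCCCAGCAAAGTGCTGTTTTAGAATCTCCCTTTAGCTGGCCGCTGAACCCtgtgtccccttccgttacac
The next sequences are the strongest wide peak of each replicate that the other replicate divided into 2 peaks of 150 bp, among those that could be printed, with capitals marking the bases inside those 2 peaks. The first, beside Wdfy2 (chr14:62837281-62837570), was wide in replicate 1, and the second, in an intron of Irs1 (chr1:82283181-82283450), was wide in replicate 2. In both, 30 bases between the 2 peaks stay in lower case.
Wdfy2: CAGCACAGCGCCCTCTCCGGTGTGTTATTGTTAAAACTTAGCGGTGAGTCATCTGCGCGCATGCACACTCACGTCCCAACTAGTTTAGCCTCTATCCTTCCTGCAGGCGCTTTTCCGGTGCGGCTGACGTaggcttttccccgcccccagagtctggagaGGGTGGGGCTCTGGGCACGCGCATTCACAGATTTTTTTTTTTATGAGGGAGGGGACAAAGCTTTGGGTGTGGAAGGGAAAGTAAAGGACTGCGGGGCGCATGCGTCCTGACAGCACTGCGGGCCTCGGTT
Irs1 intron: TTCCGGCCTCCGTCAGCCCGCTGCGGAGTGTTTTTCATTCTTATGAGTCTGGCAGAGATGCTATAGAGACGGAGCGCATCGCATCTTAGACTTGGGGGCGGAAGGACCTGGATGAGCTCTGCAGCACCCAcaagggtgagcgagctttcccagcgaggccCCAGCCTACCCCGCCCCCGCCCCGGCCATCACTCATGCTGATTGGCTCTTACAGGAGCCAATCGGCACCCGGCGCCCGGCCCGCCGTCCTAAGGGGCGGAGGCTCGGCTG

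Wide peaks covered few and regular widths. None was 170 bp wide, the narrowest were 190 bp, and the widest were 470 bp in both replicates. In replicate 1 the counts rose from 89 peaks of 190 bp through 158 of 210 bp, 215 of 230 bp, 276 of 250 bp and 285 of 270 bp to 352 of 290 bp. In replicate 2 the same widths held 71, 137, 206, 247, 310 and 332 peaks. Beyond 290 bp the count fell sharply in both lists, to 14 and 12 peaks of 310 bp, and 72 and 61 peaks (4.98% and 4.47%) were wider than 290 bp. The median width was 250 bp in replicate 1 and 270 bp in replicate 2, and wide peaks made up 0.944% and 0.924% of the covered autosomal length.

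**Figure D1:**
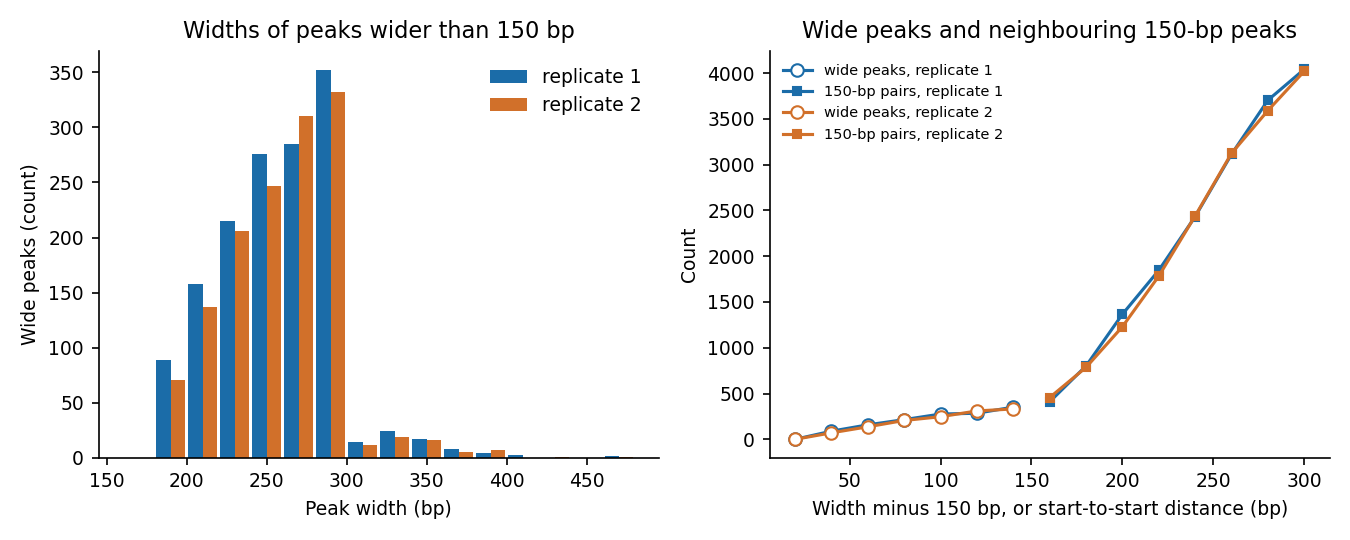
Left, count of wide peaks (y axis) by width in bp (x axis) in each replicate. Right, the same counts for widths of 170 to 290 bp, placed at the width minus 150 bp (open circles), beside the count of neighbouring 150-bp peaks by the distance between their starts (squares). Counts rise to 352 and 332 at 290 bp, and the first squares, at 160 bp, stand at 410 and 456.

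The counts by width were set beside the spacing of the narrow peaks. A span of 290 bp is that of 2 windows of 150 bp with starts 140 bp apart, and no peaks of a list overlapped or touched: the smallest gap between neighbours was 10 bp. Neighbouring 150-bp peaks with that gap, and so with starts 160 bp apart, numbered 410 in replicate 1 and 456 in replicate 2, next to the 352 and 332 wide peaks of 290 bp. At a gap of 30 bp there were 801 and 786 such neighbours, and at 50 bp 1366 and 1230. In both replicates the most frequent wide width thus had a lower count than the closest separate neighbours, and counts rose with distance on both sides of that step. None of the sources used here says whether the authors' peak caller joined overlapping windows.

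Wide peaks were weak. Replicate 1 gave them a median signal of 11.9 and replicate 2 one of 12.1, where 150-bp peaks had 17.2 and 16.9, and their median lay at percentile 24.6 and 26.5 of the whole autosomal list. Signal is in part what chose them, through the limit of 300, which left out 1 wide peak of replicate 1 and 4 of replicate 2. With the peaks of each list cut by signal into 10 classes of equal size, 1.63% and 1.58% were wide in the weakest class and 0.111% and 0.0910% in the strongest. The share fell from class to class in both lists except for 1 step in replicate 1, from 0.371% in class 6 to 0.378% in class 7. Signal did not follow width among the wide peaks of 190 to 290 bp: the median was 11.2 and 12.5 at 190 bp and 12.3 in both replicates at 290 bp. The 72 and 61 peaks wider than 290 bp had medians of 12.2 and 10.9. The deposited −log10 p of the authors was at its maximum for 6 and 5 wide peaks (0.415% and 0.367%), against 1.49% and 1.81% of 150-bp peaks.

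**Figure D2:**
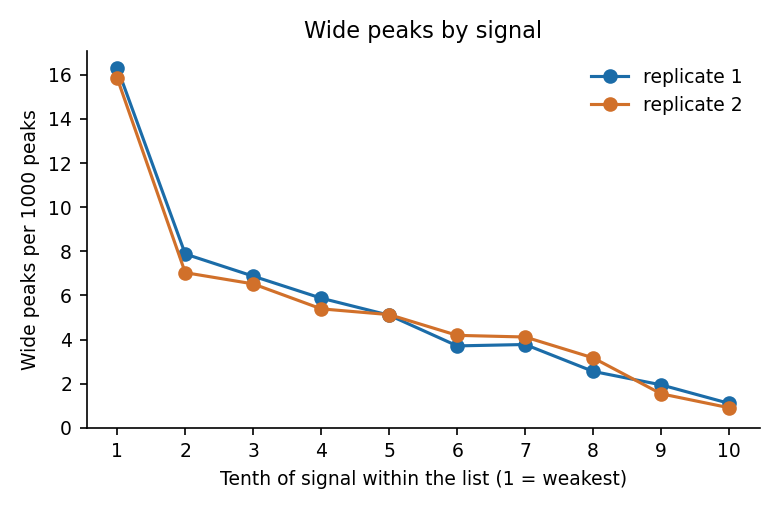
Wide peaks per 1000 peaks (y axis) in each of 10 signal classes of equal size within a list (x axis, 1 is the weakest), for autosomal peaks with signal below 300. As percentages, the replicates fall from 1.63% and 1.58% in the weakest class to 0.111% and 0.0910% in the strongest.

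Around the limit of 300, the wide peaks just inside lay at promoters. In replicate 1 they were those beside Wdfy2 (250.7) and Tsga10 (221.1), and the only wide peak beyond the limit lay within 1 kb of the TSS of the long noncoding RNA Gm26917 (733). In replicate 2 they were those of Nectin2 (292) and Ypel5 (241), and the nearest beyond the limit lay at Add3 (304) and Zfp78 (311).

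A wide peak usually had a counterpart in the other replicate, but rarely a wide one. A peak of replicate 2 overlapped 1003 of the 1447 wide peaks of replicate 1 (69.3%, exact 95% interval 66.9 to 71.7), and in replicate 2 it was 1002 of 1364 (73.5%, 71.0 to 75.8) the other way. The background over all autosomal peaks below 300 was 74.6% and 77.3%. Wide peaks are weak, and weak peaks were shared less: 150-bp peaks weighted to the wide peaks' split over the 10 signal classes gave 57.8% and 62.8%. At equal signal the wide peaks were therefore shared more often, by 11.5 and 10.7 percentage points, although they also span more bases. When only their central 150 bp counted, 62.8% and 66.5% were shared, which is closer to the weighted 150-bp peaks and still above them. The intervals cover counting error only, and neighbouring peaks are not independent.

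Only 23 sites were wide in both replicates, which is 1.59% of the wide peaks of replicate 1 (exact interval 1.01 to 2.38) and 1.69% of those of replicate 2 (1.07 to 2.52). The background, the share of all autosomal peaks overlapped by a wide peak of the other replicate, was 0.426% and 0.445%. Among peaks with any counterpart, that counterpart was wide for 2.29% and 2.30% of wide peaks and for 0.562% and 0.568% of 150-bp peaks. With the central 150 bp alone the shares of wide peaks were 1.38% and 1.47%. With 5 signal classes per list, the share was 6.02% (2.93 to 10.8) and 3.80% (1.54 to 7.68) in class 4, against 0.629% (0.172 to 1.60) and 0.859% (0.280 to 1.99) in the weakest class, and the intervals of replicate 2 overlap. The 150-bp peaks had 0.446% and 0.411% in class 4. In the weakest class they had 0.326% and 0.436%, values that lie inside the intervals of the wide peaks there. The rise was uneven in replicate 1, with 1.20% in class 2, 0.866% in class 3 and 3.75% in class 5. No test was run, because both directions are 1 comparison.

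**Figure D3:**
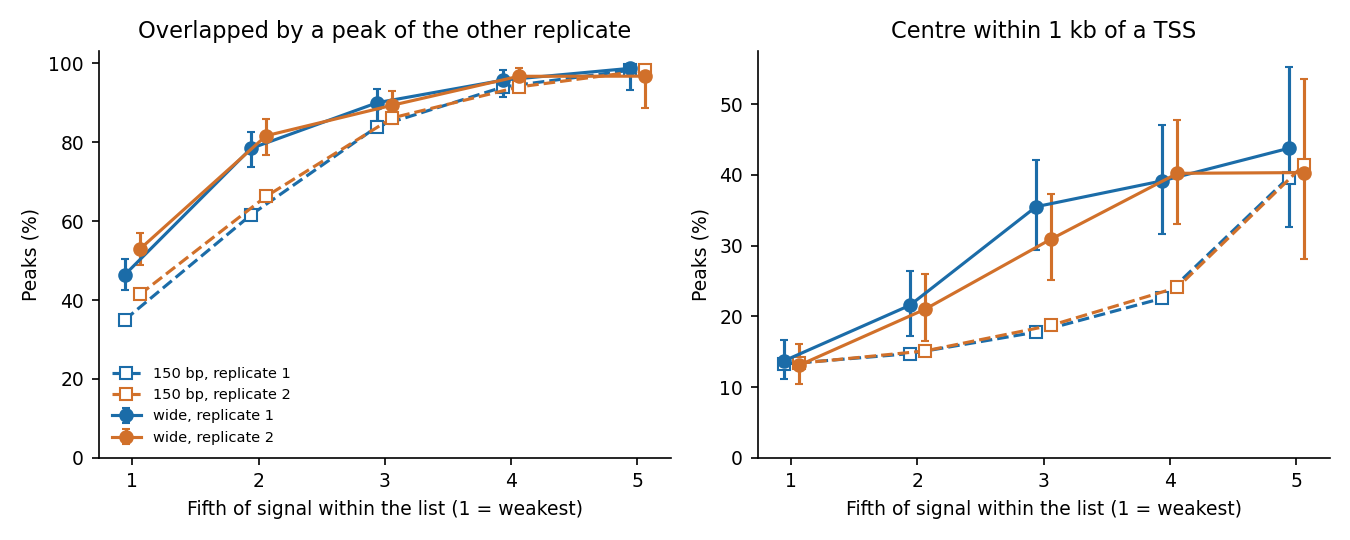
Share of wide peaks (filled circles, with exact 95% binomial intervals) and of 150-bp peaks (open squares) in each of 5 signal classes of equal size within a list (x axis, 1 is the weakest). Left, peaks overlapped by any peak of the other replicate, where wide peaks start at 46.4% and 52.9% and 150-bp peaks at 35.0% and 41.4%. Right, peaks centred within 1 kb of a TSS, where wide peaks stand above 150-bp peaks in classes 2 to 4 of both replicates.

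Where the other replicate had 1 peak of 150 bp, it was mostly off centre. The centres were 80 bp apart in the median over 860 wide peaks of replicate 1 and 70 bp over 867 of replicate 2, against 20 bp for 150-bp peaks in both. For wide peaks of 250 to 290 bp, the counterpart lay flush with one end, to within 20 bp, in 235 of 554 and 248 of 567 cases (42.4% and 43.7%). It was centred to within 20 bp in 81 and 76 cases (14.6% and 13.4%). A flush position can be at either end, whereas a centred one is at 1 place only. A wider interval can also be overlapped at more positions away from its centre. No share expected from random placement was computed, so no preference for the ends is read from these values. The centres lay 40 bp or more apart for 76.7% and 75.7% of all wide peaks with such a counterpart, against 35.924% and 36.004% of 150-bp peaks.

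**Figure D4:**
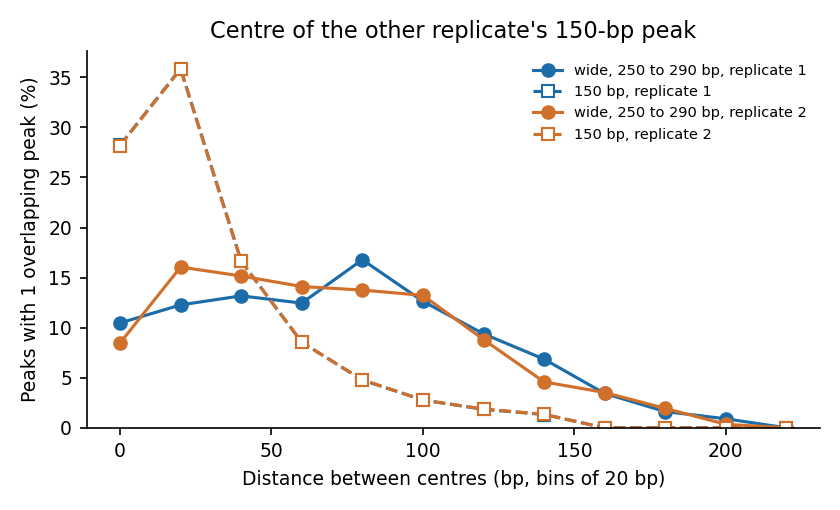
Distance in bp between the centre of a peak and the centre of the only 150-bp peak of the other replicate that overlapped it (x axis, bins of 20 bp), as a percentage of such peaks (y axis). The 150-bp peaks are most frequent at 0 and 20 bp, whereas wide peaks of 250 to 290 bp are spread out to beyond 100 bp in both replicates.

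Other wide peaks met 2 separate peaks in the other replicate. This was so for 123 wide peaks of replicate 1 (8.50%) and 114 of replicate 2 (8.36%), against 0.340% and 0.325% of 150-bp peaks, and no peak met 3. The share was 5.84% and 3.86% for widths of 190 to 230 bp and 9.20% and 10.1% for 250 to 290 bp. A wider interval can meet peaks that lie further apart. Part of the contrast with 150-bp peaks, and of the rise with width, thus follows from the width that chose the members. No comparison at equal length was made. The 2 peaks were separated by a median of 90 bp in both directions. They had similar signals: the median absolute log2 ratio between them was 0.15 over 123 cases and 0.21 over 114. Over all neighbouring 150-bp peaks of the other list with a gap of 10 to 250 bp, it was 0.48 and 0.49. These neighbours were not matched to the 2 peaks on signal or gap, and what the difference rests on was not tested.

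In the median, the wide form went with the lower signal of a site. Over 847 overlapping pairs that were wide in replicate 1 only, the median log2 ratio of replicate 2 to replicate 1, centred on all pairs, was 0.16 (SD over pairs 0.34), or 0.067 with only the upper 50% of signal in each list. Over 862 pairs that were wide in replicate 2 only it was -0.26 (SD 0.36). In each case the replicate with the 150-bp peak had the higher signal, in the median. Pairs of 150 bp in both lists had a median of -0.00 (SD 0.35). Both signs held in each of 5 ranges of mean signal, with medians of 0.11 to 0.20 and of -0.06 to -0.35, but above a mean signal of 40 the pairs of 150 bp themselves had 0.08 beside the 0.11 at peaks wide in replicate 1 only. The spread over pairs exceeded each of these shifts. Of the pairs, 99.1% and 98.8% lay within 2-fold, against 99.3% of pairs of 150 bp. None of the sources used here states how signal was scaled for depth.

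Wide peaks lay at promoters about as often as narrow ones, and more often at equal signal. Of the wide peaks, 341 (23.6%, exact interval 21.4 to 25.8) and 311 (22.8%, 20.6 to 25.1) were centred within 1 kb of a GENCODE M21 TSS, against 21.6% and 22.6% of 150-bp peaks. Weighted to the same signal, the 150-bp peaks gave 16.6% and 17.2%, a gap of 6.97 and 5.63 points. Within 500 bp of a TSS, without weighting, the order turned, with 14.4% of wide peaks and 15.2% of 150-bp peaks as means of both replicates. In the weakest of 5 signal classes the shares did not differ beyond counting error, with 13.7% (11.1 to 16.6) and 13.1% (10.4 to 16.1) against 13.2% and 13.4%. In class 3 they were 35.5% (29.3 to 42.0) and 30.9% (25.1 to 37.3) against 17.8% and 18.7%, and in the strongest class the intervals again held the value of the 150-bp peaks. Exons outside promoters held 4.35% and 3.67% of wide peaks, introns 41.8% and 41.6%, and intergenic sequence 30.3% and 32.0%, close to the 3.996% and 4.08%, 41.6% and 41.2%, and 32.8% and 32.1% of 150-bp peaks.

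At promoters, few wide peaks had a start site at their centre. Their centres were 385 and 393 bp from the nearest TSS in the median, against 277 and 281 bp for 150-bp promoter peaks. At equal signal no such gap was left: the mean distance was 425 and 411 bp for wide peaks and 419 and 423 bp for the weighted 150-bp peaks. A TSS lay inside the central 150 bp of 11.1% and 14.8% of wide promoter peaks and of 26.8% and 26.7% of 150-bp ones. With 150-bp promoter peaks weighted to the same signal it was 16.7% and 16.1%, so the gap was smaller at equal signal. Wide promoter peaks had 6.40 and 6.23 CpGs in their central 150 bp, fewer than 150-bp promoter peaks (7.36 and 7.39) and more than those at the same signal (5.44 and 5.39). TSSs on both strands lay within 1 kb of 16.1% and 13.2% of them, against 15.4% and 15.3%.

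Except at the extremes of signal, wide peaks had more peaks nearby than 150-bp peaks had. Another peak lay within 500 bp of 52.7% and 51.0% of them, against 46.2% and 46.8% of 150-bp peaks. Away from promoters the median gap to the nearest other peak was 610 and 670 bp, against 890 and 870 bp. Within 2 kb of the centre they had 1.85 and 1.83 other peaks, against 1.48 and 1.51 for 150-bp peaks at the same signal. In the weakest of 10 signal classes, which held 431 and 404 of the wide peaks, the order turned: the median gap was 710 and 890 bp against 510 bp in both, and 1.39 and 1.35 other peaks lay within 2 kb, against 1.45 and 1.46. The strongest class, with 29 and 23 wide peaks, had a median gap of 430 bp in both, against 410 and 430 bp. There, 2.86 and 2.22 other peaks lay within 2 kb, against 2.17 and 2.20. Distal wide peaks were slightly poorer in G and C than 150-bp peaks, with 45.4% and 46.3% against 47.6% and 48.2%, or 46.7% and 47.4% at equal signal. Per autosome, wide peaks ran from 4.39 to 6.63 per 1000 peaks in replicate 1 and from 3.47 to 6.47 in replicate 2, with the highest value on chromosome 13 in both and the lowest on chromosomes 19 and 15.

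Wide peaks seldom held the motif of CTCF. A CTCF consensus of 12 bases with 4 free positions, searched as an exact match on both strands, was found in the central 150 bp of 8 of 1447 wide peaks of replicate 1 (0.553%, exact interval 0.239 to 1.09) and 5 of 1364 of replicate 2 (0.367%, 0.119 to 0.853). Of all 150-bp peaks, 5.14% and 5.48% held it. With the 150-bp peaks weighted to the same signal classes and the same split into promoter and distal peaks, the shares were 3.11% and 3.27%. Over the whole interval of the wide peaks, which is longer than 150 bp, 20 in each replicate held a match (1.38%, 0.846 to 2.13, and 1.47%, 0.898 to 2.26), which is still below the weighted share. The 150-bp peaks that overlapped them in the other replicate held one in 1.27% (0.696 to 2.12) and 0.915% (0.440 to 1.68) of cases, against 6.40% and 6.38% of those that overlapped 150-bp peaks. This last comparison was not weighted by signal: the overlapping peaks had median signals of 14.9 and 16.4, against 20.5 and 21.5. They also cover part of the same sequence as the wide peaks, so their shares are not a separate observation. A match is a stretch of letters and does not show that CTCF was bound.

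Among 150-bp peaks the same motif varied with the gap to the nearest other peak. It was found in 1.43% and 1.49% of peaks with another peak at 10 to 50 bp, in 2.35% and 2.49% at 150 to 290 bp, and in 7.71% and 8.35% at 630 bp or more. Wide peaks, at 0.553% and 0.367% in their central 150 bp, lay below these classes in both replicates, but over their whole interval, at 1.38% and 1.47%, they were close to the class at 10 to 50 bp. Peaks with a gap of 10 to 50 bp also had a low median signal, 13.3 and 12.7, and were shared in 58.2% and 61.0% of cases.

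**Figure D5:**
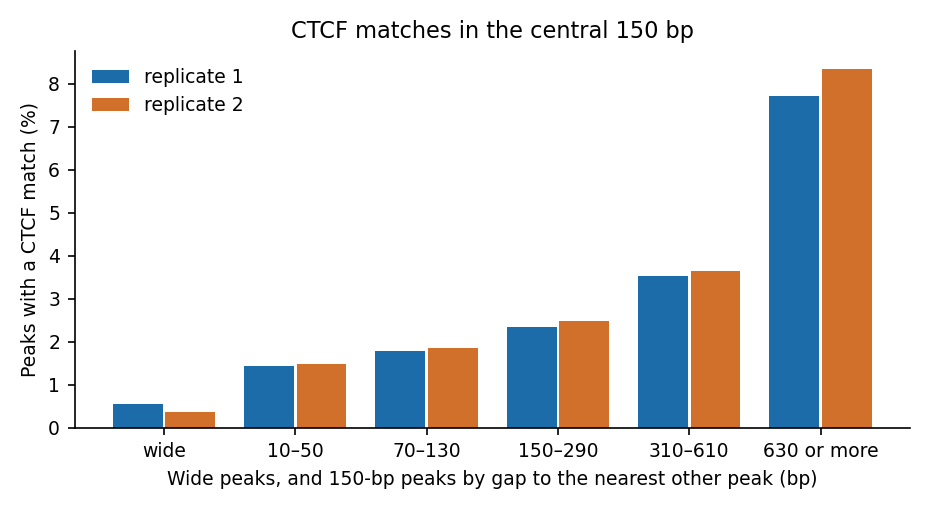
Percentage of peaks with an exact CTCF consensus match in the central 150 bp (y axis), for wide peaks and for 150-bp peaks grouped by the gap to the nearest other peak in bp (x axis), in each replicate. The share rises with each class, from 0.553% and 0.367% in wide peaks to 7.71% and 8.35% in the most isolated 150-bp peaks.

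Of the 22 motifs searched, CTCF and the 2 named next were those whose counting interval left out the value of the weighted 150-bp peaks in both replicates. The E-box CAGCTG, bound by basic helix-loop-helix factors, was found in the central 150 bp of 10.4% of wide peaks in both replicates (intervals 8.91 to 12.1 and 8.84 to 12.2), against 13.3% in both. Over the whole, longer interval it was in 17.7% (15.8 to 19.8) and 19.7% (17.6 to 21.9), so the order rests on the window. A CA repeat of 12 bases was in 1.87% (1.23 to 2.70) and 1.76% (1.13 to 2.61), against 0.571% and 0.754%. The SP/KLF box GGGCGG of CpG-rich promoters was in 6.91% and 6.74%, against 6.71% and 6.72%, and the CCAAT box in 15.1% and 16.2%, against 16.1% and 16.0%. The REST consensus was in no wide peak of either replicate and in 0.0886% and 0.0826% of the weighted 150-bp peaks, a difference that was not detectable at this number of peaks (upper bounds 0.255% and 0.27%).

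Of the 23 sites that were wide in both replicates, 10 were intronic, 6 were promoter sites, 6 intergenic and 1 exonic. The wide peaks of the replicates overlapped by 10 to 290 bp there, with a median of 210 bp, and had the same width at 8 sites. Signals ran from 9.92 to 65.2 in replicate 1 and from 8.97 to 69.8 in replicate 2, with replicate 1 higher at 13 sites and replicate 2 at 10. The site of highest rank lay in intergenic sequence of chromosome 18 (signal 65.2 and 69.8), 25084 bp from the nearest protein-coding TSS, that of Psd2. The second lay in an intron of Gxylt2, a xylosyltransferase gene (50.4 and 44.8).

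The 6 promoter sites that were wide in both replicates lay at Kank1, Ahcyl2, Cers5, Thra, Thap3 and Stra6. Kank1, which encodes a regulator of the actin cytoskeleton, had a wide peak of 270 bp and 34.7 in replicate 1 and of 290 bp and 45.0 in replicate 2, overlapping by 270 bp and centred 149 bp from the TSS. Its site held 31 CpGs in 290 bp. Ahcyl2 had 29.8 and 33.2, at 738 bp from its TSS. Thra, the gene of thyroid hormone receptor alpha, had 23.9 and 21.5 at 858 bp, in a site with 2 CpGs in 270 bp. Replicate 2 was the higher at Kank1 and Ahcyl2 and replicate 1 at Thra. At Cers5, a ceramide synthase gene, the wide peaks had 23.4 and 25.8 but overlapped by 50 bp. At Thap3 they had 16.9 and 19.7 and overlapped by 70 bp. At Stra6, which encodes the receptor for retinol-binding protein, they had 12.7 and 9.83 and overlapped by 30 bp, so at Cers5, Thap3 and Stra6 the replicates' wide peaks lay mostly side by side.

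The distal sites that were wide in both replicates and ranked next were spread over genes of different kinds. At the Tbc1d1 site printed above, replicate 1 had 40.2 and replicate 2 had 32.5. Tbc1d1 encodes a Rab GTPase-activating protein of glucose transport. The Plpp3 site, in the gene of a lipid phosphate phosphatase, had 33.3 and 36.4. The site nearest to Des, the gene of the muscle intermediate filament desmin, had 34.4 and 34.2 at 14543 bp from the TSS. Further sites lay in an exon of Tnfaip2 (24.1 and 22.1) and in an intron of Ntf3 (21.8 and 23.2), the gene of neurotrophin 3. The site ranked 12, 11739 bp from the TSS of Ypel2, had 20.9 and 19.9, and there the wide peaks overlapped by 10 bp. Neither replicate was the higher throughout, and nearness of a site to a gene shows no effect on that gene.

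The strongest wide peak of each replicate lay at a promoter. At promoters of protein-coding genes, the 5 strongest of replicate 1 were those beside Wdfy2 (250.7), an endosomal protein gene, at Tsga10 (221.1), at Chchd7 (199), at Mlf2 (164) and at Ubap2l (161). The 5 strongest of replicate 2 at such promoters were those at Nectin2 (292), which encodes a cell adhesion molecule, at Ypel5 (241), at Lims1 (235), whose product links integrins to actin, at Acadm (199), the gene of medium-chain acyl-CoA dehydrogenase, and at 1190007I07Rik (135). None of these 10 was wide in the other replicate. In the strongest of 10 signal classes, 3.45% and 4.35% of wide peaks met a wide one, so nothing is read from this absence. Beside Wdfy2, replicate 2 had 2 peaks of 288.9 and 290.8 with a gap of 30 bp. At Tsga10 it had 2 of 230.1 and 239.7, and at Ypel5 replicate 1 had 2 of 209.7 and 211. The other 7 had a single 150-bp peak, such as 214 at Chchd7, 239 at Nectin2, 222 at Lims1 and 164 at Acadm.

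Strong distal wide peaks also had counterparts of similar strength. In replicate 1 they lay beside the long noncoding RNA gene 2610037D02Rik, at 1191 bp (119, against 133 in replicate 2), in 6030442E23Rik (108, against 101 and 104 from 2 peaks) and in an intron of Tacc1, whose product binds microtubules at the centrosome (99.4, against 108). In replicate 2 the first was intergenic on chromosome 2 (12023661 to 12023910), with 155 against 149.5 in replicate 1. The nearest protein-coding TSS, at 108766 bp, was that of Itga8, an integrin gene needed for kidney formation. The next lay in an intron of Irs1, the insulin receptor substrate gene (115, against 112.2 and 112.0), and the third on chromosome 14, 51055 bp from Gm48969 (105, against 117). Among 150-bp peaks in the strongest of 10 signal classes, 99.1% were shared in both lists, so a counterpart is usual at this strength. Of pairs of 150 bp in both lists, 99.3% lay within 2-fold.

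Of the 6 widest peaks, 4 had a counterpart in the other replicate. In replicate 1 the pair of 470 bp had signals of 10.1, in intergenic sequence of chromosome 1, and 8.58, at the hair keratin-associated gene Krtap26-1, and replicate 2 had no peak at either. The third, of 410 bp, lay within Myh9, 50 bp from the start of the small nuclear RNA gene Gm22107, with 16.8 against 14.1. In replicate 2 the peak of 470 bp lay in intergenic sequence 29407 bp from Sla (8.95), and replicate 1 had 2 peaks there, of 9.06 and 16.4. The next in width had 430 bp within Sema3a, 87 bp from the start of Gm42676 (11.1, against 19.5 in replicate 1), and 390 bp near Il9 (23.8, against 31.0 and 26.6). The peak near Il9, at percentile 66.4 of its list, was the strongest of these 6, but this follows in part from the choice. It was taken as the strongest of 7 peaks of 390 bp, and the peak of 410 bp as the strongest of 3.

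Few genes had a wide promoter peak in both replicates. Of protein-coding autosomal genes with a promoter peak, 319 of 15421 (2.07%) had a wide one in replicate 1 and 286 of 15429 (1.85%) in replicate 2. In both replicates it was 11 genes. That is 3.45% of the first, beside the 1.85% of replicate 2, and 3.85% of the second, beside the 2.07% of replicate 1. Genes were not matched on their number of promoter peaks. Besides the 6 named above, the 11 genes were Anxa7, Fryl, Lmln, Psmd6 and Zswim5, where the wide peaks of the replicates did not overlap. Over 14 gene lists of kidney cell types, other tissues and general functions, 9 of 149 genes with a promoter peak (6.04%) had a wide one in either replicate, against 3.79% of protein-coding genes, and none had one in both. Genes with several promoter peaks have more chances to hold a wide one, so nothing is read from this share.

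The genes were spread over 8 of the lists. In nephron progenitors it was Six2, the transcription factor that keeps them undifferentiated, with a wide peak of 11.6 in replicate 1, 948 bp from the TSS, where replicate 2 had a 150-bp peak of 11.1. In podocytes it was Wt1, with 18.25 in replicate 1 against 21.4. In the early nephron they were Fgf8, a growth factor of nephron formation (14.6, against 2 peaks of 9.67 and 12.8), and Ccnd1, which encodes cyclin D1 and is also in the cell cycle list (13.4, against 18.8). Six2, Wt1, Fgf8 and Ccnd1 were thus all wide in replicate 1 only.

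Among the general lists, the ribosomal protein gene Rpl4 had a wide peak of 67.9 in replicate 1 against a 150-bp peak of 75.3. The growth-response genes Dusp1, a phosphatase gene, and Klf6, a transcription factor gene, had wide peaks of 32.6 and 28.0 in replicate 2. Replicate 1 had 2 peaks of 26.9 and 26.0 at the first and none at the second. The translation elongation factor gene Eef1a1 had one of 7.97 in replicate 2 alone. At Six2, Wt1, Ccnd1, Eef1a1, Rpl4, Dusp1 and Klf6 the gene's strongest promoter peak was another one, for example 72.9 at Six2 and 121 at Wt1 in replicate 1, so the wide peak was a secondary peak of the promoter. The lists of stroma, endothelium, proximal tubule, loop and distal tubule, leukocytes and erythroid cells, and liver, gut and pancreas held no gene with a wide promoter peak. In that order, they held 12, 10, 8, 9, 7 and 4 genes with a promoter peak in either replicate. Over all protein-coding genes with such a peak, 3.79% had a wide one, so no difference between lists is read from this absence.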

How the data were processed

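DNase-seq peaks of 2 replicates of 1 group were used. Per the file headers, each deposited list (narrowPeak) was derived from 1 alignment of 36-nt reads to mm10-minimal, so peaks were called per sample; none of the sources used here names the aligner, the peak caller, its threshold or the depth. The authors' deposited signal (column 7) is a multiple of 1/64 and its scaling is not given; the deposited −log10 p (column 8) was only described. Starts lie on a grid of 20 bp.

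Chromosomes 1 to 19 were used. Peaks were shared at an overlap of at least 1 bp. Promoter means a centre within 1 kb of any GENCODE M21 TSS; GC, CpG and motifs were read in the central 150 bp. Weighted shares average the 150-bp peaks per signal class, 10 in a list (for motifs, also per promoter or distal class), with the wide peaks' proportions. Log2 ratios were centred on the median of all 1-to-1 pairs. Intervals are exact binomial (95%). With 1 group, no test was run. Members, lists and motifs were chosen with earlier results of these data known; whole-interval motifs, gap classes, offsets and signal balance were added after the data were seen.

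Named were the wide-in-both sites of highest mean signal rank, the 3 widest, the 3 strongest, the 5 strongest promoter and 3 strongest distal wide peaks per replicate, those next to 300, and list genes; list genes wide in 1 replicate, the 5 genes with non-overlapping wide peaks and the split examples were added afterwards. One result of the gene lists is not reported here. Sequences over 300 bp, on chromosome 18, with 50% or more masked or in a UTR were not printed. Functions were tested on simulated data. Tools were scipy 1.17.1 for intervals, pandas 2.3.3 and numpy 2.4.6 for tables and matplotlib 3.10.9, in Python 3.11.15.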

Additional observations from a re-analysis of the deposited data

Results flagged for a closer look

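Wide peaks also appeared on chromosomes X and Y, which the report's comparisons left out and which entered only 1 of the alternative settings. Replicate 1 had 21 wide peaks on chromosomes X and Y, all 21 on X, and replicate 2 had 15, of which 14 were on X and 1 on Y. They are listed here because both counts exceed the 3 that a count of 0 allows. They made up 5.198 and 3.78 per 1000 peaks of these chromosomes, and their median signal was 14.6 and 11.3. The median over the autosomes was 5.40 and 5.52 per 1000 peaks, so wide peaks were not more frequent on X and Y.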

How the results depend on the processing

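Values here are means of both replicates. When each list was limited to its upper 50% of signal, 348.5 wide peaks were left, 24.2 was their median signal, 40.03% were at promoters (150-bp peaks 29.4%), 86.1% were shared (150-bp peaks 83.6%, so the order turned), 3.44% met a wide peak, and the log2 ratio at peaks wide in replicate 1 only was 0.067. With an overlap of at least 50% of the shorter peak, 59.3% were shared and 1.28% met a wide peak. With TSS windows of 500 bp and 2 kb the promoter share was 14.4% (150-bp peaks 15.2%, so the order turned) and 32.1% (29.6%), and with protein-coding TSSs 20.1% (18.7%). Among alternatives added after the data were seen, the central 150 bp gave 64.6% shared and 1.42% that met a wide peak. Peaks wider than 290 bp numbered 66.5, with a median width of 330 bp and a median signal of 11.5. Of these, 76.5% were shared (150-bp peaks 76.0%), 0% met another of this width, and the log2 ratio was 0.22 at those of replicate 1 only. Their order in sharing turned in replicate 1 only (79.2% against 74.6%) and not in replicate 2 (73.8% against 77.3%). The causes were not tested. Without each replicate in turn, the number was 1364 to 1447, the width 250 to 270 bp, the signal 11.9 to 12.1 and the promoter share 22.8% to 23.6%; results that compare the replicates have no such value. Wider than 170 bp gave the same peaks, and neither dropping the limit of 300 nor adding X and Y moved a value beyond the SD between replicates (for log2 ratios, beyond 0.05). No paired analysis was possible because there is only 1 group. Depth is unknown, so no precision per peak can be given.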
